A study of Mus musculus with 4 samples.

Results

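The cytosolic ribosomal proteins are described here across single CD4 T cells taken from mice with graft-versus-host disease (GVHD). Members were chosen by symbol: every gene named Rpl or Rps with a number, plus Rplp0, Rplp1, Rplp2 and Rpsa, leaving out pseudogene names with -ps and the Rps6k kinases. The rule matched 105 symbols before 9 pseudogene names and 10 kinases were left out, and 86 members remained of 31053 genes in the count matrices. Of these, 52 carry a large-subunit name and 34 a small-subunit name. The symbol rule also takes in 9 genes that are paralogs or carry a related name (Rpl3l, Rpl7l1, Rpl10l, Rpl22l1, Rpl36al, Rpl39l, Rps27l, Rps27rt and Rps19bp1, the last a binding partner of Rps19 and not itself a ribosomal protein). It leaves out Fau and Rack1, whose products are also part of the ribosome, and these were followed beside the members.

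The cells are CD4 T cells of TS1 Tg animals, whose T cells carry 1 transgenic receptor (BALB/c RAG2-/- TS1 Tg), and without RAG2 they can rearrange no other. They were sorted 4 weeks after transplantation from the spleen, colon and skin and from the epithelium and lamina propria of the small intestine of mice with GVHD, and the cells of all compartments were mixed into 1 droplet library per replicate. There are 2 replicates, each with 1 expression library and 1 library for the hashtag antibodies that marked the compartments. The deposited hashtag matrices list 0 hashtag features, so no cell has a tissue here, tissues were not analysed, and there is no group of untransplanted or healthy mice. The labels used here do not give the strain of the host mice, or say whether the replicates came from separate mice. The p-values below rest only on how evenly a class differed from other cells in these 2 libraries. Each gene's variance estimate also borrows from all genes tested. The p-values cannot be taken as a measure of the spread between mice.

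Ribosomal proteins assemble with ribosomal RNA into the large and small subunits that translate mRNA. Their mRNAs are among the most abundant in lymphocytes, and in mammals most of them start with a terminal oligopyrimidine (TOP) tract, a stretch of C and T at the very 5′ end through which the kinase mTOR and the protein Larp1 regulate their translation and stability. T cells enlarge their ribosome pool when they are activated and divide, under control of Myc and mTOR.

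The start of these mRNAs is shown for some of the members described below. They do not stand for all members that changed most. Rps2, Rps19, Rpsa and Rps21 also changed strongly and are not shown, and their longest runs of C and T there were of 6, 7, 5 and 7 bases. Each line gives 30 bases of the sense strand, from 10 before to 20 from the annotated start on, from RefSeq on GRCm38.p6. The longest run of C and T (5 or more) is in capitals. Rps27, in chr3:90213629-90213658 on the minus strand, rose most in cells with Tcf7 and fell most in cycling cells. Rps27l, its paralog in chr9:66946076-66946105 on the plus strand, went the other way in both. Rps27rt, in chr9:114982720-114982749 on the minus strand, has the same coding sequence as Rps27. Rps24, in chr14:24490668-24490697 on the plus strand, was the most abundant member. Rpl35, in chr2:39005112-39005141 on the minus strand, was among the members that fell most in cells with Itgae and Cd8a and rose most in cells with Il13 or Csf2. Rps15a, in chr7:118116128-118116157 on the minus strand, rose in cells with Itgae and Cd8a while most members fell. Rpl28, in chr7:4792955-4792984 on the plus strand, and Rpl38, in chr11:114668570-114668599 on the plus strand, moved in opposite directions in cycling cells.
Rps27: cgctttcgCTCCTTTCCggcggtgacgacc
Rps27l: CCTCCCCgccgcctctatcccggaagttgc
Rps27rt: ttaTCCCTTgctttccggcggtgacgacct
Rps24: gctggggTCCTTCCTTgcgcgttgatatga
Rpl35: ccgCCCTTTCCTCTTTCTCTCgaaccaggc
Rps15a: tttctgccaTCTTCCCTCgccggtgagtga
Rpl28: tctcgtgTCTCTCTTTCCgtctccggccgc
Rpl38: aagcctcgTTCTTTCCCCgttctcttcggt

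RefSeq start windows were matched for 66 of the 86 members. A run of at least 8 C or T on the sense strand lay in the window of 24 of these members (36.4%), against 13.0% of 27025 genes with an entry. The motif CTTTC was present on the sense strand of the same window in 24.2% of members and 4.43% of all genes, and CTCTT, which can overlap it, in 19.7% and 4.60%. Over the whole promoter entry, 250 bases before to 50 after the start, CGGAAG on either strand was present in 66.7% of members and 18.8% of all genes, whereas TATAAA on either strand was present in 10.6% and 15.7%. These windows and motifs were chosen after the sequences were seen, and a match is a description of letters only.

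The 2 expression libraries held 89427990 and 108082997 unique molecular identifiers (UMIs, each 1 counted mRNA molecule), and 19020 and 15898 cells were kept, with medians of 2688 and 3699 UMIs. Kept cells shared 599 barcodes between the libraries, where 44.5 would be expected from their numbers, and results without them are given where they differ. The 8 T cell markers (Cd3e, Trac and others) were all detected, at 12280 and 11978 CPM in sum, while 268 and 189 kept cells carried more than 1% of UMIs from markers of other lineages, mostly neutrophil genes. CPM is a gene's UMIs per 1000000 UMIs of the cells summed. Since a 3′ library counts each molecule once at its end, CPM needs no correction for length between genes. Levels of genes with near-identical copies are less certain, because how their reads were assigned is not known.

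Ribosomal protein mRNAs made up about 1 in 6 of all molecules counted. Their share was 16.8% of UMIs in replicate 1 and 17.5% in replicate 2, with exact binomial 95% intervals of 16.788 to 16.806% and 17.447 to 17.463% that cover counting error only. The difference between the libraries was larger than these intervals, and with 1 library per replicate it has no test. Barcodes under 100 UMIs, which hold free RNA and no cell, gave 15.4% and 14.9%, somewhat below the cells, and the kept cells with other-lineage markers gave 14.7% and 13.3%. Of 82 members at 50 CPM or more, 66 were lower in free RNA than in cells, with a median log2 ratio of -0.20. Without the shared barcodes the libraries' shares were 16.5% and 17.3%.

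The share moved with the depth and the mitochondrial share of a cell. From cells of 1000 to 1500 UMIs to cells of 10000 or more it went from 15.5% to 17.8% in replicate 1 and from 12.9% to 18.0% in replicate 2. Across the mitochondrial share it was lowest in cells under 2% (15.4% and 16.0%), highest in cells of 3 to 5% (17.9% and 18.9%) and lower again in cells of 5 to 10% (16.7% and 16.3%). Every comparison between cells below uses cells thinned at random to 1500 UMIs. This left 15288 and 14855 cells and removed 3732 and 1043 shallower ones. With thinning every class is called at the same number of UMIs. Thinning does not change the expected share of a cell, so it does not remove these relations. Among thinned cells without Tcf7 the share was 16.05% and 16.62% at 1500 to 3000 UMIs before thinning. Above 3000 UMIs it was 16.55% and 17.32%. A share of UMIs does not give the amount of mRNA per cell.

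Single cells differed widely. At 1500 UMIs the share per cell had a mean of 16.5% with an SD of 4.25 points in replicate 1 and 17.3% with an SD of 4.43 points in replicate 2, over 4 times the SD of 0.958 and 0.977 points that binomial counting alone would give. From the 5th to the 95th percentile it ran from 10.7 to 24.5% and from 11.1 to 25.3%. The lowest cells were at 0.867% and 1.33% and the highest at 39.4% and 45.1%.

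**Figure D1:**
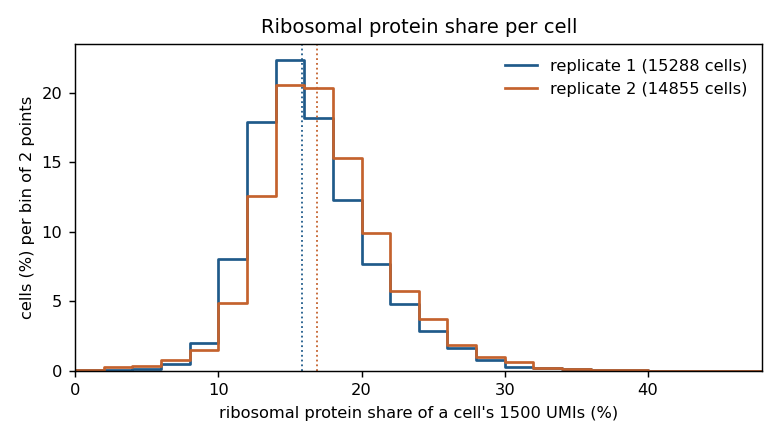
Distribution of the ribosomal protein share over cells thinned to 1500 UMIs, as the percent of cells in bins of 2 percentage points, for each replicate, with dotted lines at the medians. Replicate 2 lies slightly higher (median 16.9%) than replicate 1 (15.9%), and both have a long tail to the right.

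Most members were abundant, and a few paralogs were nearly absent. Of the 86 members, 63 reached 1000 CPM, 53 were among the 100 most abundant genes of the series and 23 among the 50 most abundant. The 10 highest members held 24.4% of all member UMIs and the 20 highest 43.3%. Large-subunit members held 54.9% and small-subunit members 45.1%.

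The most abundant member was Rps24, a small-subunit protein, at 5856 CPM in replicate 1 and 5913 in replicate 2. Rpsa, a small-subunit protein also known as the laminin receptor, was at 4212 and 4179 CPM, below Rps24 in each library. Also among the 10 highest were Rpl39, Rps15a, Rps27a, Rpl41, Rps16, Rps3a1 and Rpl6, between 3407 and 4170 CPM, whose order also changed with the library. Rpl41 and Rpl39 are among the smallest ribosomal proteins, and Rps27a is made as a fusion to ubiquitin.

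At the other end, Rpl10l had 0 UMIs in both libraries, which allows at most 3 UMIs per library. Rpl3l, the striated-muscle paralog of Rpl3, had 1 and 5 UMIs, and Rpl39l, a testis paralog of Rpl39, had 24 and 54. Rps19bp1 stood at 35.7 and 35.2 CPM, Rps27rt at 57.3 and 45.1, Rpl7l1 at 54.5 and 50.8 and Rps27l at 211 and 187. Rpl4, a large-subunit protein, had the lowest mean of the other members, at 407 and 434 CPM, although Rpl29 was lower in replicate 1 (401 CPM). Paralogs were not all low: Rpl22l1, the paralog of Rpl22, was at 797 and 785 CPM and Rpl36al at 527 and 517 CPM.

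Reads of paralogs can be shared. Rps27 and Rps27rt have identical coding sequences over 252 of 252 bases, so the split between them rests on their ends and is uncertain. Coding identity was 87.7% for Rpl36a and Rpl36al, 85.0% for Rpl39 and Rpl39l, 84.7% for Rpl10 and Rpl10l, 76.2% for Rps27 and Rps27l, 73.2% for Rpl3 and Rpl3l, 67.5% for Rpl22 and Rpl22l1 and 54.4% for Rpl7 and Rpl7l1. Members are spread over the genome, with 14 on chromosome 7 and 8 each on chromosomes 9 and 17.

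Between the libraries, 61 members were higher in replicate 2 and 24 in replicate 1. The median log2 ratio of replicate 2 over replicate 1 was 0.044 over the 82 members at 50 CPM or more, beside -0.020 over all 2771 genes at that level. Rps27 had the largest ratio (0.39, from 1472 to 1927 CPM), followed by Rpl29 (0.35), Rpl35 (0.31), Rps29 (0.31) and Rpl37a (0.31). Rps27rt had the lowest (-0.34), then Rps27l (-0.18), with Rpl7l1 (-0.10) and Rps26 (-0.10) also among the 5 lowest. These are differences between 2 libraries with no test. Outside the symbol rule, Fau was at 6261 and 6282 CPM and Rack1 at 988 and 1093 CPM.

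The cells were then divided in 5 ways by genes that mark T cell states: a UMI of Tcf7, a UMI of both Itgae and Cd8a, a UMI of Mki67 or Top2a (cycling cells), a UMI of Il10, and a UMI of Il13 or Csf2. Each class was compared with all other cells of the same library after thinning, so the 5 comparisons share most of their cells and are given side by side. A cell without a UMI may still express the gene, and free RNA holds these transcripts too: Tcf7 was at 39.0 and 37.3 CPM in the cells and 35.9 and 41.0 CPM in free RNA, and Il13 at 61.1 and 70.6 CPM in the cells and 71.5 and 75.9 CPM in free RNA. A member was called at a Benjamini-Hochberg adjusted p under 0.05 in edgeR's quasi-likelihood test over all genes tested, with the library as a block and TMM scaling. In each split 83 members passed the filter on low counts, all but Rpl3l, Rpl10l and Rpl39l. The ratio of summed shares is given per library with no test, because 2 pairs of values cannot reach significance in a permutation test.

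**Figure D2:**
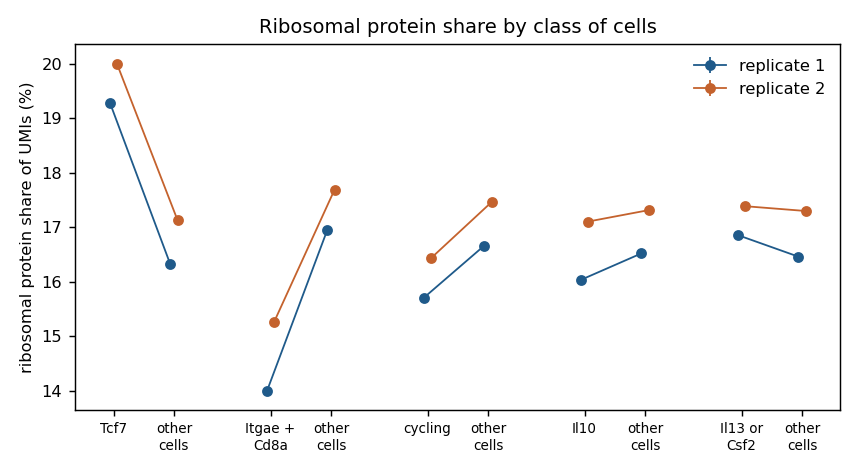
Ribosomal protein share of UMIs in each class and in the other cells of the same library, at 1500 UMIs per cell, with lines joining the 2 values of a replicate and bars for exact binomial 95% intervals, which are smaller than the points. The share is higher in cells with Tcf7 and lower in cells with Itgae and Cd8a and in cycling cells in both replicates, and close to that of other cells for Il10 and for Il13 or Csf2.

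Cells with Tcf7, the transcription factor of naive, memory and stem-like T cells, had a higher share of ribosomal protein mRNA, across nearly the whole family. In replicate 1 the share was 19.3% in 926 Tcf7 cells and 16.3% in 14362 other cells, and in replicate 2 it was 20.0% in 900 cells and 17.1% in 13955. Both Tcf7 values lay above both values of other cells. The log2 ratio was 0.24 and 0.22, a mean of 0.23 ± 0.013 (SD, n = 2 libraries). It was 0.34 with at least 2 Tcf7 UMIs per cell.

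Of 83 members tested, 68 rose and 1 fell in Tcf7 cells, where 4.23% of all 11289 genes tested rose and 4.55% fell. The median log2 fold change was 0.20 over members and -0.0034 over all genes tested. Among members other than the paralogs, 38 of 46 large-subunit and 29 of 31 small-subunit genes rose and none fell, with medians of 0.20 and 0.25.

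Rps27, a zinc-binding small-subunit protein, stood at 2045 CPM in Tcf7 cells and 1516 in other cells of replicate 1, and at 2630 and 2017 in replicate 2. Its log2 fold change was 0.40 ± 0.024 (SE), higher in 2 of 2 libraries (edgeR adjusted p = 6.10e-21). The Tcf7 cells were higher within each library, and the lower Tcf7 value was just above the higher value of other cells.

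Rps20, of the small-subunit head, was at 4070 and 3804 CPM in Tcf7 cells and 3111 and 2937 CPM in other cells. The groups did not overlap, and the log2 fold change was 0.37 ± 0.021 (SE, edgeR adjusted p = 3.40e-22). Rplp1, of the stalk that recruits translation factors to the large subunit, was at 3015 and 3320 CPM against 2327 and 2582, also without overlap, with a log2 fold change of 0.36 ± 0.022 (SE). Rps24 rose from 5921 and 6031 CPM to 7694 and 7512 (0.34 ± 0.019), and Rps29, another zinc-binding small-subunit protein, from 1584 and 2002 to 2002 and 2580 (0.34 ± 0.024).

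The member that fell was Rps27l, a p53 target in other cell types, at 138 and 116 CPM in Tcf7 cells and 169 and 142 CPM in other cells. Its log2 fold change was -0.30 ± 0.083 (SE), lower in 2 of 2 libraries (edgeR adjusted p = 0.00997), and the groups did not overlap. Its partner in sequence, Rps27, thus rose while Rps27l fell. The call of Rps27l was lost in several alternatives, where 0 members fell. These were the class called on other genes, cells of 1500 to 3000 UMIs and cells above 3000 UMIs. They were also the fits without the deepest 5% of cells, outside the other 4 classes, with DESeq2 and with no replicate block. Rpl22l1 rose (0.22), while the values of Rps27rt (0.34, edgeR adjusted p = 0.0544), Rpl7l1 (-0.28, edgeR adjusted p = 0.240), Rpl36al (0.047) and Rps19bp1 (-0.063) did not pass. Members other than paralogs that did not pass include Rpl4, Rpl7, Rpl7a, Rpl13a, Rpl23a, Rpl27, Rpl31, Rpl41 and Rps6.

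Other translation genes are given beside the 4.23% of all genes that rose and the 4.55% that fell. Fau (0.17) and Rack1 (0.18) rose. Of 8 elongation genes 3 rose and 0 fell, namely Eef1b2 (0.22), Eef1a1 (0.13) and Tpt1 (0.11), and of 20 tested genes on the list of other TOP mRNAs 7 rose and 2 fell. Among 30 initiation factors 0 rose and 1 fell, the helicase gene Eif4a1 (-0.22). Of 35 ribosome biogenesis genes 3 rose, the nucleolar genes Gnl3 (0.42), Nop58 (0.34) and Nop10 (0.16), and 0 fell. Of 78 mitochondrial ribosomal proteins, a separate family that builds the ribosome of mitochondria, 2 rose and 1 fell, and of 11 tested regulators of ribosomal protein mRNAs (Mtor, Larp1, Myc and others) none passed in edgeR (2 at an unadjusted p under 0.05).

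Other properties moved with this class. Tcf7 cells had lower depth before thinning (medians of 2907 and 3390 UMIs against 3151 and 3890) and a higher mitochondrial share (3.47% and 3.33% against 3.11% and 2.94%), and 13 of 16 mitotic and replication genes fell while 6 of 14 dissociation and heat shock genes rose and 1 fell. The part of these in the result was not tested. The summed level of 39 markers of other lineages was 1128 and 675 CPM in Tcf7 cells and 2121 and 3365 CPM in other cells. Its erythroid part was 680 and 34.8 CPM in Tcf7 cells and 68.4 and 150 CPM in other cells, higher in the class in replicate 1. Without the cells that carried other-lineage markers 67 members rose and 1 fell. The number called was 41, all risen, in cells of 1500 to 3000 UMIs, and 12, all risen, without the library as a block.

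Cells with both Itgae, the integrin chain CD103 that holds T cells in epithelia, and Cd8a, the CD8 alpha chain, had a lower share of ribosomal protein mRNA. The share was 13.99% in 2276 such cells and 17.0% in 13012 other cells of replicate 1, and 15.3% in 2302 and 17.7% in 12553 cells of replicate 2. Both values of the class lay below both values of other cells. The log2 ratio was -0.28 and -0.21, a mean of -0.24 ± 0.045 (SD, n = 2 libraries). Cells with a UMI of only Itgae had 16.2% in each replicate and cells with only Cd8a 15.2% and 16.3%, between the double-positive cells and the cells with neither (17.6% and 18.3%).

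Of 83 members tested, 71 fell and 2 rose, where 17.3% of 11289 genes tested fell and 14.8% rose. The median log2 fold change was -0.21 over members and -0.0010 over all genes tested. Without the paralogs, 40 of 46 large-subunit members fell and 0 rose, and 29 of 31 small-subunit members fell and 1 rose.

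Rps20 fell most, from 3348 and 3152 CPM in other cells to 2163 and 2114 CPM in the class. The groups were far apart, and the log2 fold change was -0.57 ± 0.029 (SE), lower in 2 of 2 libraries (edgeR adjusted p = 4.22e-13). Rps2, near the channel by which mRNA enters the small subunit, went from 1992 and 1910 to 1325 and 1335 CPM (-0.52 ± 0.033). Rps19, mutated in Diamond-Blackfan anaemia, went from 1187 and 1221 to 795 and 884 CPM (-0.49 ± 0.037). Rpsa went from 4185 in both libraries to 2951 and 3030 CPM (-0.46 ± 0.028). In each of these 4 small-subunit genes the values of the 2 groups did not overlap. The genes were picked for large falls in these same libraries, so this adds no separate support.

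Rpl35, which sits at the exit tunnel of the large subunit, was at 616 and 813 CPM in the class and 877 and 1084 CPM in other cells, a log2 fold change of -0.43 ± 0.038 (SE). Its groups did not overlap either. Rps15a, of the small subunit, was the exception, at 3796 and 4264 CPM in the class and 3667 and 4016 CPM in other cells. It rose by 0.10 ± 0.027 (SE) on the log2 scale in 2 of 2 libraries (edgeR adjusted p = 0.00748), less than the distance between the libraries. The other member that rose was Rps19bp1 (0.33), at 39.7 and 41.5 CPM against 33.0 and 32.9. Rpl22l1 (-0.19) and Rps27rt (-0.26) fell, and Rpl7l1 (0.21), Rpl36al (0.041) and Rps27l (-0.045) did not pass.

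Among other translation genes, to be read beside the 17.3% of all genes that fell and the 14.8% that rose, Fau (-0.10) and Rack1 (-0.19) fell. Of 8 elongation genes 6 fell and 0 rose, led by Eef1g (-0.45), Eef1e1 (-0.43) and Eif5a (-0.37). Of 35 ribosome biogenesis genes 22 fell and 1 rose, with a median of -0.43, and those that fell include Npm1, a nucleolar chaperone, from 605 and 611 to 443 and 460 CPM (-0.40). Of 30 initiation factors 10 fell and 2 rose, and of 20 other TOP mRNAs 14 fell and 2 rose, led by the filament gene Vim (-1.06). Of 8 factors that handle nascent chains 3 fell and 2 rose. Among 11 regulators 3 fell and 0 rose: Myc (-0.91), Larp1 (-0.72) and Rps6kb1, an S6 kinase (-0.29). Of 78 mitochondrial ribosomal proteins 15 rose and 6 fell, where 14.8% of all genes rose and 17.3% fell.

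This class had higher depth before thinning (medians of 3637 and 4337 UMIs against 3051 and 3742) and a lower mitochondrial share (2.50% and 2.38% against 3.24% and 3.07%). All 14 dissociation and heat shock genes fell, with a median of -0.83, led by Atf3 (-1.77), Hspa1b (-1.57) and Hspa1a (-1.52). The part of these in the result was not tested. The 39 markers of other lineages summed to 1063 and 972 CPM in the class and 2235 and 3611 CPM in other cells, and without the cells that carried them 72 members fell and 2 rose. Members called numbered 36 in cells of 1500 to 3000 UMIs and 28 without the library as a block, and every one of these fell.

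**Figure D3:**
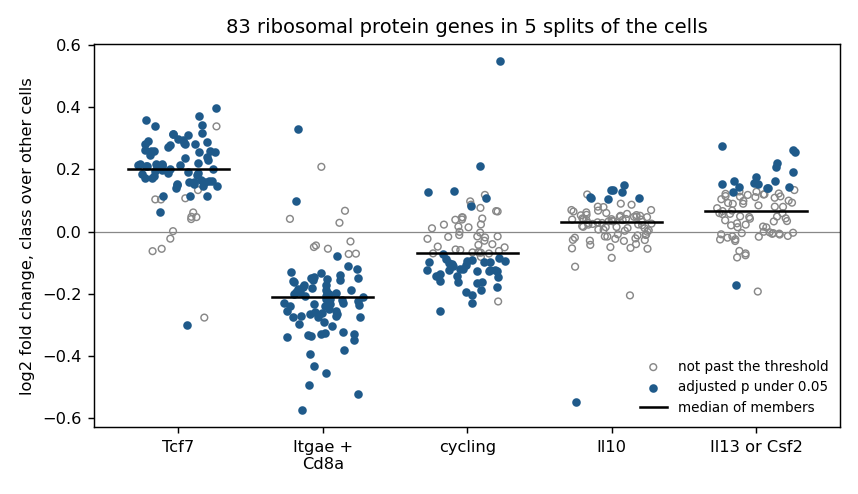
Log2 fold changes of the 83 tested members in each of the 5 splits, 1 point per gene, filled where the edgeR adjusted p is under 0.05, with the median as a black line. Nearly all points lie above 0 for Tcf7 and below 0 for Itgae plus Cd8a, whereas the other 3 splits straddle 0.

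Cycling cells, those with a UMI of Mki67 or Top2a, had a slightly lower share, and members moved in both directions. The share was 15.7% in 2589 cycling cells and 16.7% in 12699 other cells of replicate 1, and 16.4% in 2271 and 17.5% in 12584 cells of replicate 2. Both cycling values lay below both values of other cells, with replicate 2 of the former just under replicate 1 of the latter. The log2 ratio was -0.085 and -0.087, a mean of -0.086 ± 0.0015 (SD, n = 2 libraries), and it was -0.0070 without thinning.

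The step was not even over cells graded by their UMIs from the list of 16 mitotic and replication genes. In replicate 1 the share was 16.7% in cells with 0 such UMIs, 16.4% in cells with 3 and 15.4% in cells with 5 or more. In replicate 2 it was 17.5%, 17.4% and 16.1%. The lowest value in each library was thus that of the cells with the most such UMIs.

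Of 83 members, 37 fell and 6 rose, where 6.97% of 11433 genes tested fell and 12.3% rose. Without thinning 21 of 84 members tested fell and 37 rose, where 2618 of 13389 genes tested fell and 3337 rose. That alternative does not equalise depth, adds the cells under 1500 UMIs and puts 5109 and 4929 cells in the class. With a second thinning 43 fell and 11 rose, and with thinning to 1000 UMIs 45 fell and 7 rose. The median log2 fold change was -0.068 over members and -0.0077 over all genes tested, and 0.041 over members without thinning. Of the large-subunit members other than paralogs, 23 of 46 fell and 1 rose, and of the small-subunit members 14 of 31 fell and 4 rose.

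Rps27 fell most, from 1595 and 2107 CPM in other cells to 1321 and 1761 CPM in cycling cells. Its log2 fold change was -0.26 ± 0.031 (SE), lower in 2 of 2 libraries (edgeR adjusted p = 2.72e-15), although the groups overlap across libraries. Rps21 (-0.23), Rpl30 (-0.21), Rpl38 (-0.19) and Rpl36 (-0.19) were next. Rpl38 is known for its role in the translation of particular mRNAs in the embryo, and it went from 2160 and 2610 to 1857 and 2290 CPM.

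Rps27l rose more than any other member, from 154 and 133 CPM in other cells to 232 and 184 CPM in cycling cells. The groups did not overlap, and its log2 fold change was 0.55 ± 0.053 (SE), higher in 2 of 2 libraries (edgeR adjusted p = 1.87e-23). Rpl28 (0.13), Rps19 (0.13) and Rps6 (0.11), the substrate of the S6 kinases, also rose, but Rpl28 was at -0.0062 in cells of 1500 to 3000 UMIs. Rps27rt (-0.23, edgeR adjusted p = 0.0531), Rpl7l1 (0.12), Rpl36al (0.023), Rpl22l1 (0.014) and Rps19bp1 (-0.041) did not pass.

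Counts of other translation genes in cycling cells stand beside the 12.3% of all genes that rose and the 6.97% that fell. Of 35 biogenesis genes 7 rose and 0 fell, led by Nop56 (0.52), Nop58 (0.47) and Nhp2 (0.32), and of 78 mitochondrial ribosomal proteins 19 rose and 0 fell, led by Mrpl49 (0.69), Mrpl18 (0.56) and Mrpl51 (0.51). Of 30 initiation factors 8 rose and 3 fell, with Eif4e, the cap-binding protein, at 0.37 and Eif4a1 at 0.35. Elongation genes gave 1 that rose (Eif5a, 0.13) and 2 that fell (Eef1a1, -0.10, and Tpt1, -0.093). Of 20 other TOP mRNAs 3 rose and 5 fell, Fau (-0.14) among the latter, while none of the 11 regulators passed in edgeR (0 also at an unadjusted p under 0.05).

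Cycling cells were deeper before thinning (medians of 3562 and 4800 UMIs against 3094 and 3763), and 11 of 14 dissociation and heat shock genes fell while 2 rose. The part of these in the result was not tested. The 39 other-lineage markers summed to 2589 and 3315 CPM in cycling cells and 1953 and 3182 CPM in other cells, with erythroid markers at 202 and 391 CPM against 85.8 and 98.3, and without the cells that carried them 41 members fell and 7 rose. The number called dropped to 8 (7 fallen) in cells of 1500 to 3000 UMIs and to 1 (Rps27l) without the library as a block.

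**Figure D4:**
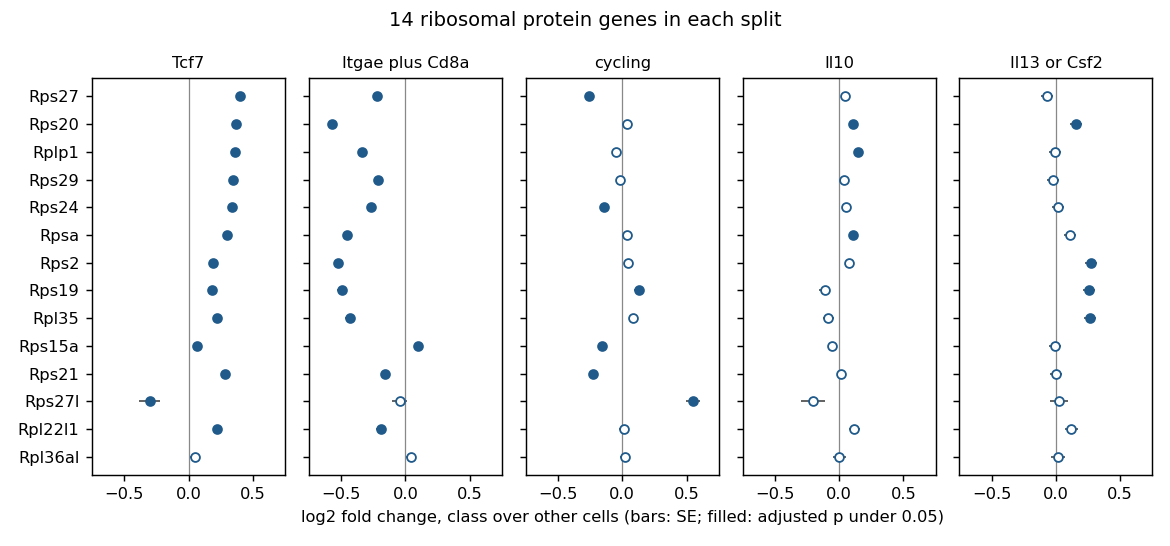
Log2 fold change of 14 members described in the text in each split, with SE bars, filled where the edgeR adjusted p is under 0.05. Rps27 and Rps27l lie on opposite sides of 0 for Tcf7 and for cycling cells, and Rps2, Rps19 and Rpl35 lie on opposite sides of 0 for Itgae plus Cd8a and for Il13 or Csf2.

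Cells with Il10, an anti-inflammatory cytokine, had a slightly lower share of ribosomal protein mRNA within each library. The share was 16.0% in 617 Il10 cells and 16.5% in 14671 other cells of replicate 1, and 17.1% in 721 and 17.3% in 14134 cells of replicate 2. The groups overlapped across libraries, and the log2 ratio was -0.043 and -0.018, a mean of -0.030 ± 0.018 (SD, n = 2 libraries). It was 0.010 without thinning.

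With TMM scaling 8 members rose and 1 fell, where 4.27% of 11477 genes tested rose and 3.15% fell. With total UMIs as the scale 0 members rose and 7 fell, where 333 of the 11477 genes rose and 502 fell. The median over members was 0.030 with TMM and -0.037 with total UMIs, beside -0.024 and -0.091 over all genes tested. Rplp1 (0.15 ± 0.031, SE), Rplp0 (0.13 ± 0.030) and Rpl12 (0.13 ± 0.039), of the large-subunit stalk and its base, led the members that rose with TMM, followed by Rps3 (0.13) and Rps13 (0.11). Rplp1 was at 2496 and 2779 CPM in Il10 cells and 2363 and 2619 in other cells, so its groups overlapped across libraries. Rpl7l1 fell (-0.55, edgeR adjusted p = 0.0351), at 27.0 and 35.2 CPM against 50.2 and 46.2, and was at 0.019 without thinning. Rpl22l1 (0.12), Rps27rt (0.069), Rps19bp1 (0.079), Rpl36al (0.0026) and Rps27l (-0.21) did not pass.

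Other translation genes in Il10 cells, with TMM, stand beside the 4.27% of all genes that rose and the 3.15% that fell. Myc was the 1 of 11 regulators that rose (0.93), from 23.8 and 17.8 to 41.1 and 34.3 CPM, and 0 fell. Of 35 biogenesis genes 3 rose and 0 fell, namely Rrp1b (0.64), Ddx21 (0.43) and Ncl (0.33). Of 30 initiation factors 4 rose and 1 fell, led by Eif1 (0.31), and of 8 elongation genes 2 rose (Tpt1, 0.12, and Eef2, 0.12, the latter -0.0060 when cells were thinned to 1000 UMIs). Of 20 other TOP mRNAs 3 rose and 2 fell, and Fau and Rack1 did not pass. Of 78 mitochondrial ribosomal proteins 0 rose and 1 fell, Mrpl58 (-0.40).

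The number of members called in the Il10 split was small under every alternative tried. It was 1 with a second random thinning, 0 with thinning to 1000 UMIs, 0 with DESeq2 (8 at an unadjusted p under 0.05) and 0 without the library as a block (1 at an unadjusted p under 0.05). In the same cells 8 of 14 dissociation and heat shock genes rose and 5 fell, and the depth before thinning was lower (2864 and 3655 against 3148 and 3869 UMIs), as was the mitochondrial share (2.90% and 2.69% against 3.14% and 2.98%). The part of these in the result was not tested. The other-lineage markers summed to 771 and 1368 CPM in Il10 cells and 2115 and 3295 CPM in other cells, and without the cells that carried them 8 members rose and 1 fell.

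Cells with Il13, a type 2 cytokine, or Csf2, which encodes GM-CSF, had a share close to that of other cells. It was 16.9% in 1673 such cells and 16.5% in 13615 other cells of replicate 1, and 17.4% in 1395 and 17.3% in 13460 cells of replicate 2. The log2 ratio was 0.034 and 0.0073, a mean of 0.021 ± 0.019 (SD, n = 2 libraries), so the groups overlapped and the ratio was about as large as its spread. Its direction turned with depth: the mean was -0.063 in cells of 1500 to 3000 UMIs and 0.078 in cells above 3000 UMIs, with both libraries on the same side each time.

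Of 83 members, 17 rose and 1 fell, where 10.3% of 11443 genes tested rose and 6.98% fell. With total UMIs as the scale 13 members rose and 4 fell, where 1030 of the 11443 genes rose and 1074 fell. The median was 0.068 over members and -0.0097 over all genes tested. Of the large-subunit members other than paralogs 10 of 46 rose and 1 fell, and of the small-subunit members 7 of 31 rose and 0 fell.

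Rps2 led, at 2276 and 2018 CPM in the class and 1845 and 1800 CPM in other cells. Its groups did not overlap, and the log2 fold change was 0.28 ± 0.047 (SE), higher in 2 of 2 libraries (edgeR adjusted p = 1.29e-06). Rpl35 went from 822 and 1027 to 974 and 1180 CPM (0.26 ± 0.049) and Rps19 from 1106 and 1153 to 1308 and 1313 CPM (0.26 ± 0.048). The groups of Rps19 did not overlap, while those of Rpl35 did across libraries. Rpl29 (0.22) and Rps25 (0.21), a small-subunit protein known for its role in internal initiation on viral mRNAs, followed. Rps2, Rps19 and Rpl35 were also among the 5 members that fell most in cells with Itgae and Cd8a. Those cells are part of the other cells here, and only 127 and 100 of them were also in the Il13 or Csf2 class.

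The member that fell was Rpl13a, known for a second role in silencing inflammatory mRNAs, at 353 and 411 CPM in the class and 415 and 468 CPM in other cells (-0.17 ± 0.055, SE; edgeR adjusted p = 0.0191). Its values in the class lay just below those of other cells. No paralog passed (1 at an unadjusted p under 0.05 in edgeR): Rpl22l1 was at 0.12, Rpl7l1 at 0.033, Rps27l at 0.022, Rpl36al at 0.014, Rps27rt at -0.083 and Rps19bp1 at -0.19.

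Beside the 10.3% of all genes that rose and the 6.98% that fell in this class, 4 of 11 regulators rose and 0 fell, including Rptor of the mTOR complex (0.58), Tsc1 of the complex that restrains it (0.56) and Larp1 (0.39), each below 50 CPM, though Tsc1 was at -0.064 when cells were thinned to 1000 UMIs. Of 35 biogenesis genes 4 rose and 1 fell, of 30 initiation factors 2 rose and 1 fell, of 8 elongation genes 2 rose (Eif5a, 0.34, and Eef1e1, 0.30) and 0 fell, and of 20 other TOP mRNAs 5 rose and 0 fell, led by Vim (1.11). Fau and Rack1 did not pass. Mitochondrial ribosomal proteins gave 4 that rose and 4 that fell of 78.

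This class also stood apart in other respects. The mitochondrial share was 3.69% and 3.75% against 3.06% and 2.88%, and 12 of 14 dissociation and heat shock genes rose and 0 fell, led by Atf3 (1.86), Hspa1a (1.50) and Hspa1b (1.29). The part of these in the result was not tested. The other-lineage markers summed to 1121 and 1939 CPM in the class and 2176 and 3333 CPM in other cells, and without the cells that carried them 15 members rose and 1 fell. No member was called in cells of 1500 to 3000 UMIs (0, with 3 at an unadjusted p under 0.05 in edgeR) or without the library as a block (0, with 5), and DESeq2 called 4, all risen.

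**Figure D5:**
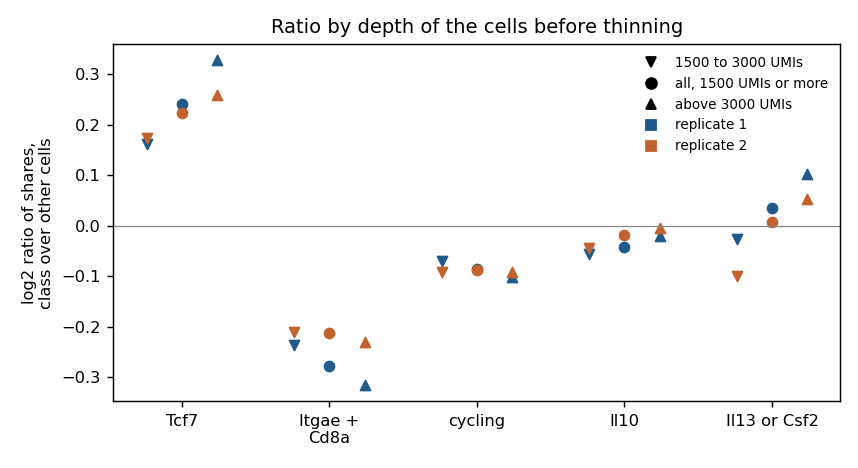
Log2 ratio of the ribosomal protein share, class over other cells, in each library (colour) for cells of 1500 to 3000 UMIs, all cells of 1500 UMIs or more and cells above 3000 UMIs before thinning (marker shape). The Tcf7 ratios stay above 0 and those of Itgae plus Cd8a and cycling cells below 0 at every depth, while those of Il13 or Csf2 lie below 0 in shallower and above 0 in deeper cells.

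The changes showed little relation to features of the genes. Across 82 members at 50 CPM or more, Spearman's correlation of the log2 fold change with the coding length (75 to 1257 bases, median 453) was -0.15 for Tcf7, -0.12 for Itgae plus Cd8a, 0.26 for cycling cells, 0.14 for Il10 and 0.18 for Il13 or Csf2. These are descriptions across genes that share libraries and cells, and genes are not independent replicates. Members with a run of 8 or more C or T in the start window (24 tested) and members without (39 tested) had medians of 0.21 and 0.19 in Tcf7 cells, -0.22 and -0.20 in cells with Itgae and Cd8a, -0.075 and -0.067 in cycling cells, 0.040 and 0.028 in Il10 cells and 0.091 and 0.057 in cells with Il13 or Csf2.

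Of the cells, 1100 and 994 were in 2 or more classes. The counts were taken again with every cell of any other class left out of both sides, which for Tcf7 left 690 and 650 cells of the class and 8376 and 8310 other cells. When the comparison was limited to cells outside the other 4 classes, 83 members were tested in each split. With Tcf7 62 rose and 0 fell, where 256 of 10660 genes tested rose and 283 fell. With Itgae and Cd8a 71 fell and 2 rose (1823 and 1498 of 10780 genes tested). In cycling cells 42 fell and 10 rose (740 and 1271 of 10836 genes tested). With Il10 3 rose and 0 fell (327 and 262 of 10638 genes tested). The part of members that rose was near that of all genes in the cycling and Il10 splits. With Il13 or Csf2 10 rose and 1 fell (940 and 629 of 10753 genes tested). This restriction was chosen after the data were seen.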

How the data were processed

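Single-cell libraries were made with the 10x Genomics 3′ v3 chemistry, per the labels' protocols, and per the submitters' processing notes the authors used Cell Ranger 3.1.0 with mm10. The deposited values are raw UMI counts per gene and barcode over all 6794880 barcodes, with no normalization, per the file headers. How reads of near-identical genes were assigned is not given in the sources used here. Barcodes needed 1000 UMIs, 500 genes and a mitochondrial share of no more than 10% to count as cells, which held 80.0% and 73.4% of all UMIs. No doublets were called.

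For the splits each cell was thinned to 1500 UMIs (seed 20). Counts were summed per library and class, giving 4 sums per split, and tested in R 4.3.3 by the quasi-likelihood method of edgeR 4.0.16 after filterByExpr, with TMM scaling and Benjamini-Hochberg adjustment over all genes tested. The split's own genes were left out. The library entered as a block because both classes of a pair came from the same library, and each fit had 1 residual degree of freedom. On simulated data with 100 genes changed by a log2 fold of 0.5 and 100 by 1, the test recovered 51 and 92% for the Tcf7 split. The simulation used a fixed dispersion that was not estimated from these data, and changed only genes above a minimum expected count. Its changes were larger than the median change of members in any split, so it does not give the recovery of changes of that size. Shares carry exact binomial (Clopper-Pearson) 95% intervals for counting error only. Sums and figures used Python 3.11.15 with numpy 2.4.6, pandas 2.3.3 and matplotlib 3.10.9, and coding identity used biopython 1.88 on GENCODE's annotation of GRCm38. Start windows came from RefSeq.

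Members named in the text are, for each split, the 5 with the largest rise and the 5 with the largest fall among those called at 50 CPM or more in the same order in both libraries, the 10 highest and 5 lowest by CPM, the 5 with the largest library ratio in each direction, and every paralog. Of other genes, up to 3 per list and split were named. A few genes that these rules name are not reported here. The members and lists were chosen with earlier results of these data known. Members with the largest changes were picked in the same libraries, so a lack of overlap between their groups is no separate support. Alternatives were a second seed, thinning to 1000 UMIs or none, classes called on other genes, depth ranges, other scalings, no low-count filter, DESeq2 (1.42.0) and no block.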

Additional observations from a re-analysis of the deposited data

Results flagged for a closer look

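The hashtag libraries, which no comparison above uses, held ribosomal protein UMIs. In the hashtag library of replicate 1, 24822 of 157432 UMIs (15.7668%) were of members, and in that of replicate 2, 32937 of 208698 (15.7821%), with 83 members detected in each. These drew attention because the libraries were made for antibody tags, yet their matrices list genes only, and the member share lies close to that of free RNA in the expression libraries (15.4% and 14.9%).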

How the results depend on the processing

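With 2 libraries, each fit had 1 residual degree of freedom. In the simulated data, with their fixed dispersion, 51 to 65% of genes changed by a log2 fold of 0.5 were recovered over the 5 splits. Fits of member counts without 1 library leave no residual degrees of freedom and were not run.

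Members called for Tcf7 (69) were 41 in cells of 1500 to 3000 UMIs and 12 with no replicate block, the fit that ignores that both classes come from the same library. For Itgae plus Cd8a (73) they were 36 and 28. For cycling cells (43) they were 58 without thinning (37 risen), 8 in cells of 1500 to 3000 UMIs and 1 with no replicate block. Without thinning 3337 of 13389 genes tested rose in cycling cells and 2618 fell. For Il10 (9) they were 1 with a second thinning, 0 at 1000 UMIs, 4 without thinning, 0 at 1500 to 3000 UMIs, 2 above 3000 UMIs, 3 outside the other 4 classes, 7 (all fallen) on total UMIs, 0 with DESeq2 and 0 with no replicate block. For Il13 or Csf2 (18) they were 2 at 1000 UMIs, 6 without thinning, 0 at 1500 to 3000 UMIs, 11 outside the other 4 classes, 4 with DESeq2 and 0 with no replicate block. The block changed no direction in the Tcf7 and Itgae plus Cd8a splits.

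The log2 ratio of shares for Tcf7 (0.23) was 0.20 at 1000 UMIs, 0.25 with the class called on 1000 UMIs of other genes, 0.17 at 1500 to 3000 UMIs, 0.29 above 3000 UMIs, 0.21 outside the other 4 classes and 0.34 with 2 Tcf7 UMIs. For Itgae plus Cd8a (-0.24) it was -0.30 against cells with neither gene. For cycling cells (-0.086) it was -0.0895 at 1000 UMIs, -0.0070 without thinning, -0.0797 with the class called on other genes, -0.0802 and -0.0970 below and above 3000 UMIs, -0.0943 without the deepest 5% of cells, -0.0968 without shared barcodes, -0.0889 outside the other 4 classes, -0.0888 with ribosomal proteins outside the symbol rule added and -0.0714 for 3 UMIs of the mitotic list. For Il10 (-0.030) it was 0.010 without thinning and -0.049 at 1500 to 3000 UMIs. For Il13 or Csf2 (0.021) it was -0.015 at 1000 UMIs, 0.049 without thinning, -0.063 at 1500 to 3000 UMIs and 0.078 above 3000 UMIs. The share per library (a mean of 17.1%) was 15.2% in barcodes under 100 UMIs. Leaving out each library gave ratios from 0.22 to 0.24 for Tcf7, -0.28 to -0.21 for Itgae plus Cd8a, -0.0874 to -0.0853 for cycling cells, -0.043 to -0.018 for Il10 and 0.0073 to 0.034 for Il13 or Csf2, and shares from 16.8 to 17.5%. The alternatives without shared barcodes and outside the other 4 classes were chosen after the data were seen.

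Over 2736 repeats for named genes, 2161 kept their side of the threshold, 540 lost a call and 22 gained one. A change of sign was counted apart only where the gene passed in the main fit or in the repeat. Changes of sign in genes that passed in neither are among the 2161. The changes counted apart numbered 13: without thinning Atf3 with Tcf7 (0.17), Rps27l with Itgae and Cd8a (0.19), Eif3b with Itgae and Cd8a (0.062), Rps19bp1 in cycling cells (0.25) and Rpl7l1 with Il10 (0.019). At 1000 UMIs these were Eif3b (0.19) and Polr1a (0.0061) with Itgae and Cd8a, Eef2 with Il10 (-0.0060), and Tsc1 (-0.064) and Mrpl11 (0.058) with Il13 or Csf2. In cells of 1500 to 3000 UMIs they were Rpl28 in cycling cells (-0.0062) and Ube2c with Il13 or Csf2 (0.074), and with the class called on other genes Nop10 with Tcf7 (-0.0033). The cause of these changes was not tested.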
